A study of Mus musculus with 4 samples.

Results

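The genes described here are 10 components of bone morphogenetic protein (BMP) signalling: the Id1, Id2, Id3 and Id4 effector genes, the inhibitors Smad6, Smad7 and Bambi, the ligands Bmp2 and Bmp7, and the receptor gene Acvr2b. They were found as every probe set whose single annotated symbol is one of these names, which gave 16 probe sets of the 22690 on the array. The RNA came from P19, a mouse embryonal carcinoma line that forms neural cells when its aggregates are given retinoic acid. The control was unmodified P19, and the other line constitutively expressed human LIN28A, which binds let-7 precursors and keeps them from being processed. Cells of each line grew as aggregates for 4 days with 5e-07 M all-trans retinoic acid in medium with bovine sera, and 2 arrays were made per line, numbered 1 and 2 in the labels. The sources used here do not give the promoter that drives LIN28A or say whether the line is 1 clone, and the labels call the arrays repeats without saying that they came from separate cultures, so a p-value measures only the spread between these arrays. Values below are deposited linear intensities, and differences are LIN28A minus control on the log2(value + 16) scale, which understates the change of low values.

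BMP ligands bind type I and type II serine-threonine kinase receptors, which phosphorylate Smad1, Smad5 and Smad9. With Smad4 these enter the nucleus and switch on target genes, among them the Id genes, Smad6, Smad7 and Bambi. Id proteins have a helix-loop-helix but no DNA-binding basic region, so they hold E proteins in dimers that do not bind DNA and keep proneural factors from working. Smad6, Smad7 and the pseudoreceptor Bambi dampen the signal that induces them. BMP signalling opposes neural fate in early ectoderm and later patterns the dorsal neural tube.

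Median intensities of the arrays ran from 29.0 to 38.6, and 35.7% to 42.3% of probe sets lay under 16. The neural progenitor gene Sox2 lay between 1295 and 1902 on the 4 arrays, Pax6 between 106 and 212, and the neuronal tubulin gene Tubb3 between 372 and 644. The pluripotency gene Pou5f1 was at 30.3 and 28.7 on the number 1 arrays and at 374 and 775 on those of number 2. For this gene the numbers thus differed in both lines, but its list was mixed. Sall4 went the other way, with 16.4 and 2.1 in control 1 and 2 and 194 and 83.1 in LIN28A 1 and 2. Nanog fell from 70.8 to 5.7 in control and rose from 10.4 to 37.8 in LIN28A cells. Markers of other cell types read low and high within their lists. Among glial markers Gfap was at most 22.1, while Slc1a3 read 88.9 to 107 and Mbp 97.3 to 237. Among endoderm markers Gata4 was at most 7.90, while Lamb1 read 45.6 to 273. Among fibroblast and smooth muscle markers Col1a1 was at most 10.5, while Acta2 read 40.9 to 142.5, Col3a1 10.9 to 148 and Fn1 433 to 540.1.

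No member passed limma's test with Benjamini-Hochberg adjustment over all 15838 tested probe sets. All 16 member probe sets passed the filter on low values, and each had an adjusted p of 1; at an unadjusted p under 0.05 there were 0 members in this fit without a block, against 0.442% of all probe sets higher and 1.21% lower. The test called 0 of all probe sets (0%), and 70 lay higher and 192 lower at the unadjusted level. The members are therefore described array by array and within each replicate number, as the plot of intensities by array shows. Unless said otherwise, SEs and intervals below come from the fit without a block, so the difference between the numbers is part of them. Fewer cells of a type and less RNA per cell cannot be told apart in such bulk RNA.

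**Figure D1:**
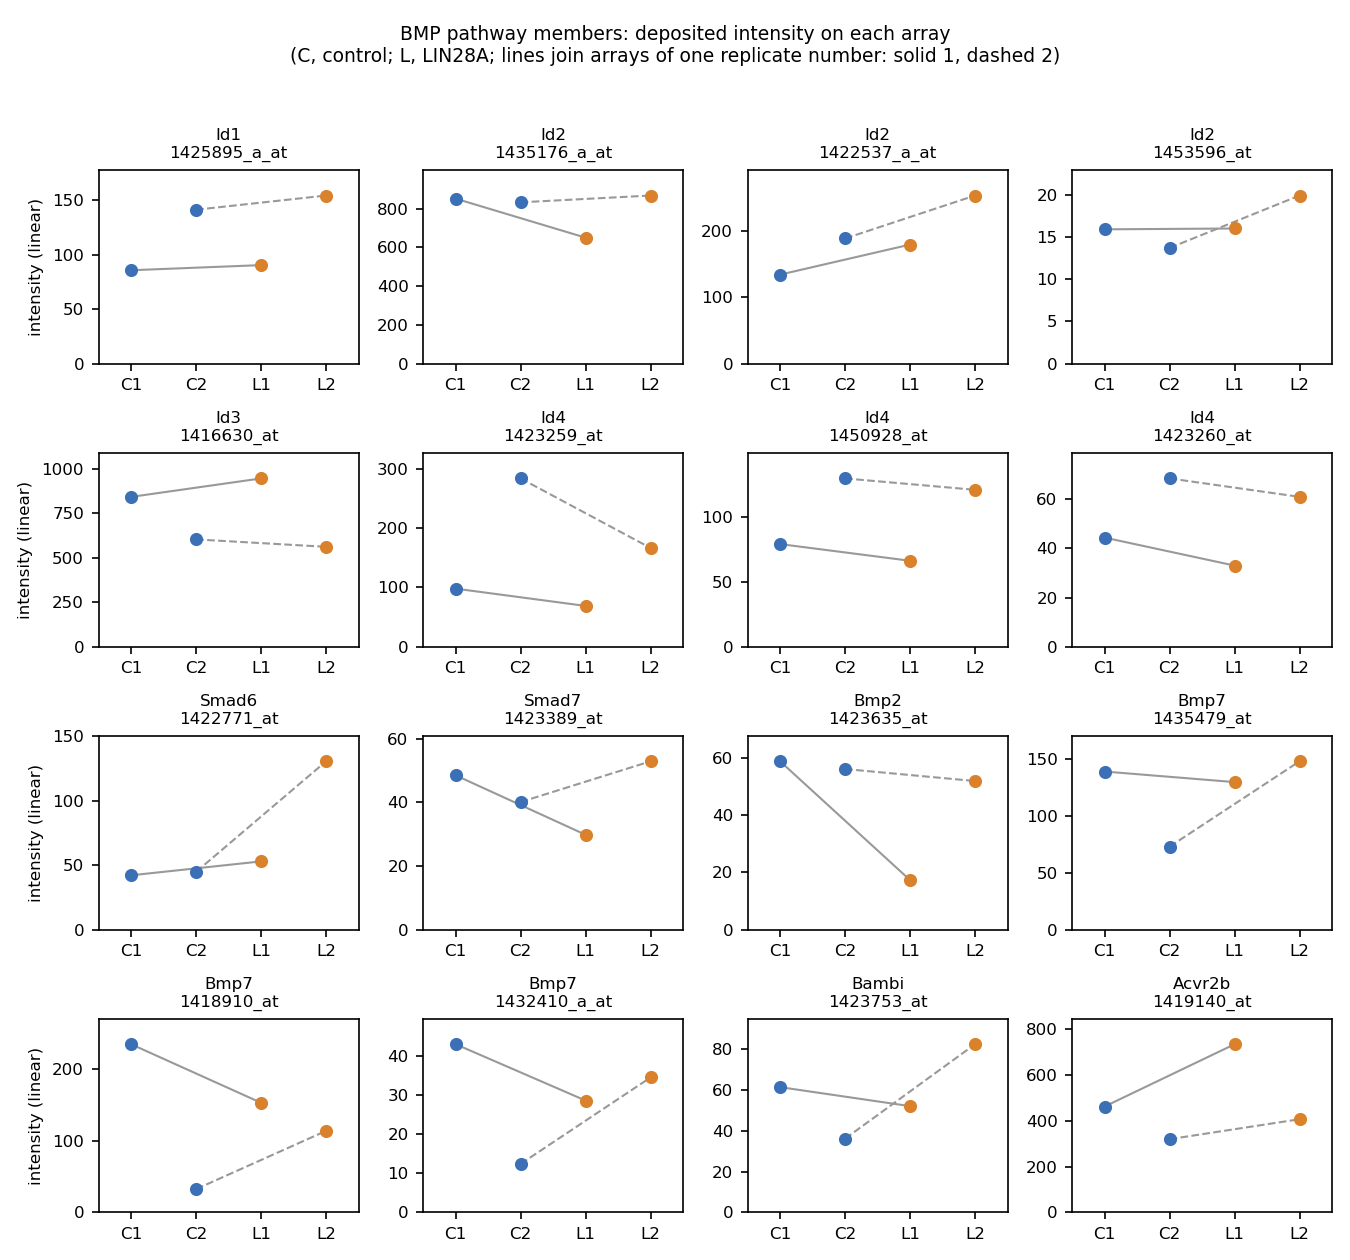
Deposited linear intensity (y axis, from 0 in each panel) of the 16 member probe sets on each array (x axis: C1 and C2, control; L1 and L2, LIN28A), with 1 panel per probe set and lines joining arrays of the same number. The Id1 and Id3 lines are nearly level, the 3 Id4 panels slope down in both numbers, and the 3 Bmp7 panels slope down in number 1 and up in number 2.

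Id1, the most widely used readout of BMP-Smad signalling, read nearly alike in the lines. It read 85.7 and 141 in control 1 and 2 and 90.4 and 154 in LIN28A 1 and 2. The arrays of number 2 were the high ones in both lines, and the lines overlapped. The difference was 0.07 in number 1 and 0.11 in number 2, or 0.09 ± 0.38 (SE, n = 2 per line) with a 95% interval of -0.86 to 1.04. That interval leaves room for a difference in either direction. The 3 genes whose 4 mean-centred values lay closest to those of Id1 were Arid1a, a chromatin remodelling gene (Euclidean distance 0.038), Krit1 (0.039) and Gprasp1 (0.050), over 4 arrays and 8920 candidate genes. So many profiles lie close together on 4 arrays that 248 genes were within 0.2.

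Id3, another early BMP target, also showed no direction shared by the numbers. It gave 842 and 603 on the control arrays and 946 and 561 on the LIN28A arrays. Number 1 held the high arrays in both lines. The difference was 0.16 in number 1 and -0.10 in number 2 (0.03 ± 0.37 SE, 95% interval -0.89 to 0.95), and over the 2 arrays of each line it was -0.00029 under quantile normalization.

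Id2 gave different answers at its 3 probe sets. The brightest gave 852 and 833 on the control arrays and 651 and 868 on the LIN28A arrays, so only LIN28A 1 stood apart, on the low side (-0.38 in number 1 and 0.06 in number 2). The second in brightness gave 134 and 189 on the control arrays and 179.7 and 254 on the LIN28A arrays. It was higher in LIN28A cells by nearly the same amount in each number, 0.38 and 0.40, while control 2 still lay above LIN28A 1 (0.39 ± 0.33 SE, 95% interval -0.43 to 1.21). The difference there was 0.16 without LIN28A replicate 2 and 0.17 without control replicate 1. The dimmest gave 15.9 and 13.7 against 16 and 19.9, near the pseudocount, with both LIN28A arrays above the controls. What the 3 probe sets detect differently was not tested.

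Id4, an Id gene of neural progenitors, was the Id gene that read lower in LIN28A cells within both numbers at every probe set. Its brightest probe set gave 97.7 and 283.5 on the control arrays and 68.6 and 166 on the LIN28A arrays, a difference of -0.43 in number 1 and -0.72 in number 2 (-0.57 ± 0.59 SE, 95% interval -2.02 to 0.88). The second gave 79.3 and 130.1 against 66.4 and 121 (-0.21 and -0.09), and the dimmest gave 44.4 and 68.5 against 33.0 and 61.0 (-0.30 and -0.13). In all 3 the number 2 arrays were high in both lines and the lines overlapped. The gap between the control arrays, 1.4 at the brightest probe set, was larger than the gap between the lines. The LIN28A arrays differed there by 1.11 in the same direction. With the replicate block in limma, the SE at that probe set was 0.21 and the adjusted p was 0.571. Without control replicate 2 the difference there was 0.13. Under median centring the 3 probe sets stayed below 0 in both numbers, the second at -0.0068 and -0.039.

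Most neuronal markers, like Id4, read lower in LIN28A cells within both numbers. Of 12 neuronal marker genes tested, 10 were lower in LIN28A cells within both numbers, against 32.6% of all 8930 tested genes. Their median was -0.69 in number 1 and -0.68 in number 2. Their summed intensity was 3914 to 6426 in control and 1969 to 4524 in LIN28A arrays, and none of the 12 was at 0. Like Id4, the sum was highest in control 2. Their part in the Id4 values was not tested.

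The Id genes with a promoter window in the sequence table are shown with Smad6, which a Smad complex is also known to switch on, because Id4 and Smad6 lay on opposite sides of 0 in both numbers, while Id3 and the brightest Id2 probe set had no shared direction. The windows are RefSeq sequence of GRCm38.p6, from 250 bases before to 50 bases after the gene's start, 5′ to 3′ on the gene's strand. They lie at chr12:25096043-25096342, minus strand (Id2), chr4:136143572-136143871, plus strand (Id3), chr13:48260866-48261165, plus strand (Id4) and chr9:64022010-64022309, minus strand (Smad6). Capitals mark GGCGCC, a GC-rich element bound by Smad1 and Smad5, and CAGAC or its reverse complement GTCTG, the Smad box.
Id2: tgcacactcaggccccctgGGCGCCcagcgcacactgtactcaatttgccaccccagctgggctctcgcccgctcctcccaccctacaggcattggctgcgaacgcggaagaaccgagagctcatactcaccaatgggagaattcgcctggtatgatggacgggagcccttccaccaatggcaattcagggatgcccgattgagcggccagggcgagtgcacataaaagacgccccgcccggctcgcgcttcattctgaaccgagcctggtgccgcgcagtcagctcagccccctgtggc
Id3: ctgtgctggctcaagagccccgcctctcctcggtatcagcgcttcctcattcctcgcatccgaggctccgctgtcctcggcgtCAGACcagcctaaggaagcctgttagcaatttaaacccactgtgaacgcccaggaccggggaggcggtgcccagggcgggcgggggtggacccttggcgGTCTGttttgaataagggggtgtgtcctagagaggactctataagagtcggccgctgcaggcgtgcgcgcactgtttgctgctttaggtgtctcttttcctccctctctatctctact
Id4: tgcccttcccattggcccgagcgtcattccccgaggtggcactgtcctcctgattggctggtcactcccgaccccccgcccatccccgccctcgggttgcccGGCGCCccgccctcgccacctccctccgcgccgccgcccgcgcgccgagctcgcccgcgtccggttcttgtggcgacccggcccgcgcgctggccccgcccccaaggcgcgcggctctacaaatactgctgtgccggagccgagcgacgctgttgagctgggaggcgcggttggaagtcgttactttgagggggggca
Smad6: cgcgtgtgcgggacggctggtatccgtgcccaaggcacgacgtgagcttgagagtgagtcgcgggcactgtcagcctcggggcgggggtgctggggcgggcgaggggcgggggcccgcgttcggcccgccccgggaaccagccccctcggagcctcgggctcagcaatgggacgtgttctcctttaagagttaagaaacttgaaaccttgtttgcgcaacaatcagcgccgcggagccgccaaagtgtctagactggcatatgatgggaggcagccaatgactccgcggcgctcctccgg

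Both motifs were searched on both strands, and no matches overlapped in these windows. The Id4 window held 1 GGCGCC, its first base at -148, and no CAGAC, and its GC content was 73.3%. The Id2 window likewise held 1 GGCGCC, at -231 (GC 63.3%). The Id3 window held no GGCGCC and 2 CAGAC boxes, at -167 and, in reverse, at -68 (GC 60.0%), and the Smad6 window held neither (GC 66.3%). Of all 32851 promoter windows in the table, 11.9% held GGCGCC and 49.6% held CAGAC on either strand, and their median GC content was 52.7%. The matches describe these exact letters only. Other forms that Smads may bind were not searched, among them the gtctagac in the Smad6 window. Windows of members on 1 chromosome were not searched, while the shares over all windows kept that chromosome. A gene without a window here may thus still have 1. A window was used for 5 of the 10 genes, and Id1, Bmp2, Bmp7, Bambi and Smad7 are named only. The window of the fifth gene, Acvr2b, is not printed. It held 1 CAGAC box, in reverse at -233, and no GGCGCC (GC 73.3%).

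Smad6, the inhibitory Smad that acts mainly on BMP type I receptors, read higher in both LIN28A arrays. It gave 42.1 and 44.8 on the control arrays and 52.9 and 130.6 on the LIN28A arrays. The lines did not overlap, but LIN28A 2 alone was far above the rest. The difference was 0.25 in number 1 and 1.27 in number 2, where the intensity ratio was 2.92 (0.76 ± 0.42 SE, 95% interval -0.28 to 1.79, unadjusted p = 0.123). The difference was 0.21 without LIN28A replicate 2.

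Smad7, which inhibits both BMP and TGF-beta receptors, did not follow Smad6. It gave 48.5 and 40.1 on the control arrays and 29.8 and 52.9 on the LIN28A arrays. LIN28A 1 was the lowest array and LIN28A 2 the highest. The difference was -0.49 in number 1 and 0.30 in number 2 (-0.10 ± 0.33 SE, 95% interval -0.91 to 0.71), and over both it was 0.028 under median centring.

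Bambi, a receptor-like protein without a kinase domain, also had opposite signs. It gave 61.3 and 36.1 on the control arrays and 52.0 and 82.3 on the LIN28A arrays. The difference was -0.18 in number 1 and 0.92 in number 2 (0.37 ± 0.36 SE, 95% interval -0.51 to 1.24), and the number 1 value became 0.018 under median centring. Leaving out control replicate 2 gave 0.081 over the remaining arrays, and leaving out LIN28A replicate 2 gave 0.10. All 3 inhibitors had their highest array in LIN28A 2. So did Bmp4, Gdf3 and Tcf4 at their brightest probe sets, and the share of all genes with this pattern was not counted. Other genes described here peaked elsewhere at their brightest probe sets. Acvr2b and Ski were highest in LIN28A 1, Smad4 and Bmpr1a in control 2, and Bmp2 and Msx1 in control 1.

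Bmp7, a ligand of the roof plate and of many epithelia, differed between the lines in opposite directions in the numbers, at all 3 of its probe sets. The second of them in brightness gave 235 and 32.6 on the control arrays and 153 and 114 on the LIN28A arrays (-0.57 in number 1 and 1.42 in number 2). The brightest by mean log2 value gave 139 and 73.0 against 129.9 and 148 (-0.09 and 0.88), and the dimmest gave 43.0 and 12.4 against 28.6 and 34.5 (-0.40 and 0.83). Control 2 was the low array at every probe set, and LIN28A 2 stood above it by an intensity ratio of 2.03 to 3.5. The control arrays differed by -2.37 on the log2 scale at the second probe set, control 2 minus control 1, more than either gap between the lines there. Over both numbers the differences were 0.40, 0.43 and 0.21 from the brightest to the dimmest, with 95% intervals that all held 0, and without control replicate 2 they were -0.0039, -0.76 and -0.31. Under median centring the number 1 value of the brightest was 0.11, while the other two stayed below 0.

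Bmp2, a ligand close to Bmp4, was lower in both LIN28A arrays than in either control array. It gave 58.9 and 56.2 on the control arrays and 17.3 and 52.0 on the LIN28A arrays. LIN28A 1 alone stood far below, and LIN28A 2 lay just under the controls. The difference was -1.17 in number 1 and -0.09 in number 2 (-0.63 ± 0.41 SE, 95% interval -1.63 to 0.38), and it was -0.11 without LIN28A replicate 1. In both Bmp2 and Smad6 the control arrays lay close together, with an SD of 1.91 for each, and the LIN28A arrays lay apart, with SDs of 24.5 and 54.9.

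Acvr2b, a type II receptor that binds activins, GDFs and some BMPs, read higher in LIN28A cells within both numbers. It gave 462 and 319.7 on the control arrays and 734 and 407 on the LIN28A arrays. Number 1 was the higher number in both lines, and control 1 lay above LIN28A 2, so the lines overlapped. The difference was 0.65 in number 1 and 0.33 in number 2 (0.49 ± 0.39 SE, 95% interval -0.48 to 1.46), and it stayed above 0 in both numbers under quantile normalization (0.54 and 0.32) and median centring (0.85 and 0.38). Over both numbers it was 0.077 without LIN28A replicate 1 and 0.24 without control replicate 2.

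**Figure D2:**
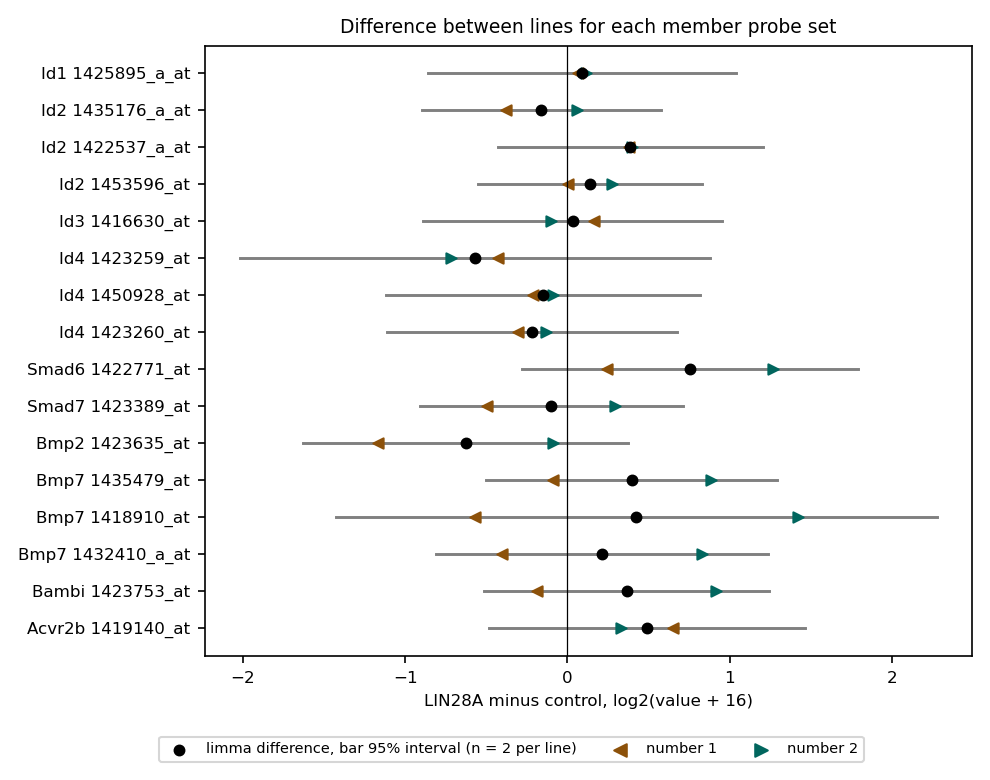
LIN28A minus control on the log2(value + 16) scale (x axis) for each member probe set (y axis), with limma's difference over 2 arrays per line as black points, its 95% interval as bars, and the differences within number 1 and number 2 as left and right triangles. Every interval holds 0, and the triangles lie far apart for Bmp7, Bmp2, Bambi and Smad6 and nearly together for Id1 and the second Id2 probe set.

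Counted over probe sets, the members had no common direction. Within both numbers 5 of 16 were higher in LIN28A cells, against 24.2% of all tested probe sets, and 4 were lower, against 33.3%. A further 6 were lower in number 1 and higher in number 2, against 25.3%, and 1 went the other way, against 16.8%. With the brightest probe set of each gene, both LIN28A arrays were above the controls for 1 of 10 genes (Smad6), against 11.5% of all 8930 tested genes, and below them for 1 (Bmp2), against 16.6%. By the same probe sets, 3 of 10 genes were higher in both numbers (25.7% of all) and 2 were lower (32.6%), and under median centring 5 were higher, Bmp7 and Bambi joining. Each of these shares of 16 or 10 rests on few probe sets, and none of them is read as particular to the members.

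The sizes differed by number. In number 2, 5 of 16 probe sets were higher in LIN28A cells by over 0.5, against 8.06% of all tested probe sets; 3 of the 5 belong to Bmp7, and the others are Smad6 and Bambi. In number 1 only Acvr2b was higher by over 0.5, against 7.61%. Bmp2 and 1 Bmp7 probe set were lower by over 0.5 in number 1, against 16.1%, and 1 Id4 probe set was in number 2, against 10.1%. In both numbers at once 0 members passed 0.5 in either direction, against 1.38% of all probe sets higher and 2.65% lower. The median over the 10 genes was 0.06, with -0.14 in number 1 and 0.21 in number 2, and over all tested genes it was -0.04, with -0.08 and 0.01.

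**Figure D3:**
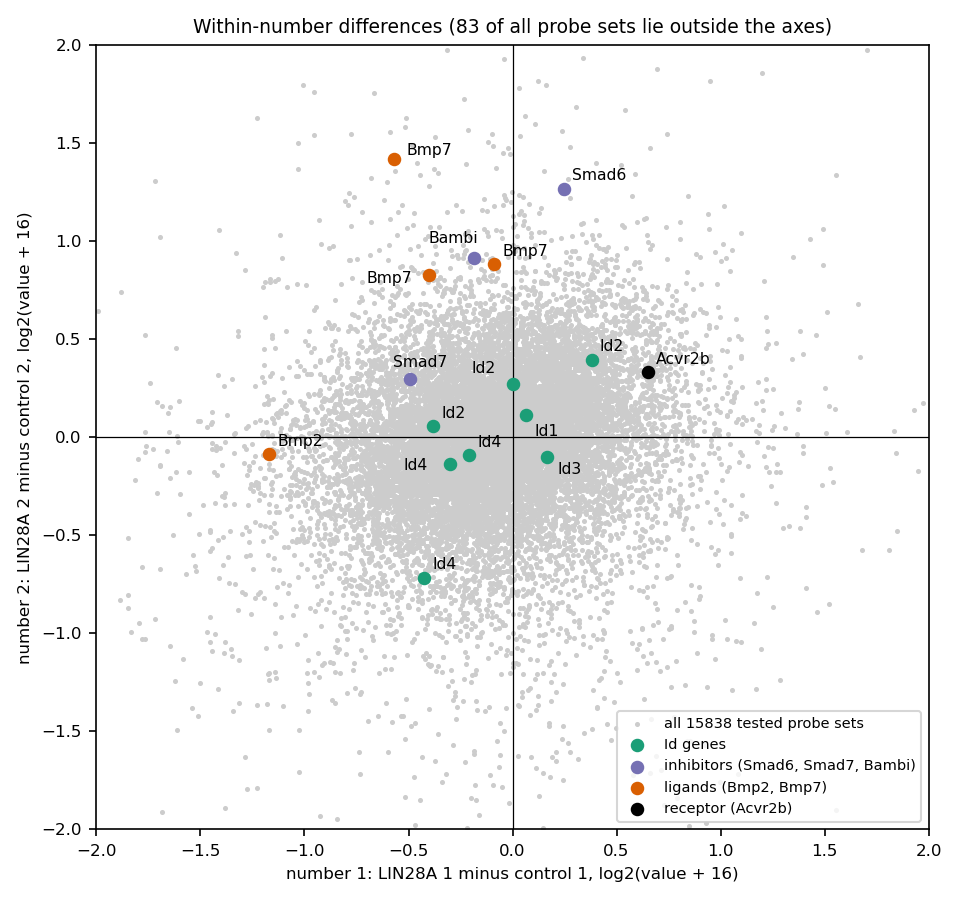
LIN28A minus control in number 1 (x axis) and in number 2 (y axis), both on the log2(value + 16) scale, for all 15838 tested probe sets (grey) and the 16 member probe sets (coloured by role), with 83 of all probe sets outside the axes. Bmp7, Bambi and Smad6 lie at the top, Bmp2 at the left, and the Id1, Id2 and Id3 points near the centre of the grey cloud.

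Markers of other cell types also read higher in LIN28A 2 than in control 2, beside Smad6, Bambi and Bmp7. Of 9 tested pluripotency markers, 3 were higher in both numbers and 1 lower, against 25.7% and 32.6% of all genes, with a median of -0.05 in number 1 and 0.71 in number 2 and a summed intensity of 350.1 to 655 in control and 509 to 1277 in LIN28A arrays. Endoderm markers had medians of -0.01 and 0.79 over 4 tested genes, with 2 higher in both numbers, 1 lower and sums of 95.9 to 189.9 and 174 to 358. Fibroblast and smooth muscle markers had medians of -0.0063 and 0.73 over 7 tested genes, with 3 higher in both numbers, 2 lower and sums of 680.2 to 682 and 729 to 874. Mesoderm markers had medians of -0.21 and 0.45 over 5, with 2 higher in both numbers, 0 lower and sums of 64.9 to 107 and 69.9 to 179.8. The medians rest on the tested members. Lamb1 read 107 and 273 on the LIN28A arrays and Col3a1 70.2 and 148, both above the controls. Lox read 7.5 and 14.3 on the LIN28A arrays against 38.5 and 36.3 on the control arrays. Sox7 read 5.9 and 3 against 23.2 and 9, so both genes lay below the controls. Col1a1, Gata4, Sox17, Foxa2 and Ttr lay below the filter, at most 10.9 on every array. Neural progenitor markers went the other way, with medians of 0.38 and -0.51 over 10 genes, 1 higher in both numbers and 2 lower, as did neural crest and dorsal markers, with 0.24 and -0.46 over 7, 1 higher and 2 lower. Glial markers had medians of -0.47 and 0.13 over 4, with 1 higher and 1 lower. The part of these cell types in the Smad6, Bambi and Bmp7 values was not tested.

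Outside the members, 67 of 77 other genes of the pathway had a probe set, 46 passed the filter, and 0 passed the test in either direction (0% of all), with 0 at an unadjusted p under 0.05 by the brightest probe sets. Of the 46, 9 were higher in both numbers, 11 were lower and 26 had opposite signs. Of all 8930 tested genes, 25.7% were higher, 32.6% were lower and 3682 had opposite signs. The counts of single lists below rest on few genes each, and none is read as particular to its list. Beyond the fixed genes, those named were picked for the largest same-sign differences in their list, so their lines tend to lie apart by that choice. Of all tested genes, both LIN28A arrays lay above the controls for 11.5% and below them for 16.6%. The median of the 46 was -0.05, with -0.17 in number 1 and 0.10 in number 2, and over both it was above 0 under either other scaling. The shift from number 1 to number 2 that Bmp7, Bambi and Smad6 show was thus in the same direction in the list, as it was over all tested genes.

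Among the receptors, Bmpr1a, a type I BMP receptor gene, had 5 probe sets, and all 5 were lower in LIN28A cells within both numbers (4 of 5 under either other scaling). Of all tested probe sets, 33.3% were lower in both numbers, and the 5 read a single gene on the same arrays. The brightest averaged 672 ± 150 on the control arrays and 584 ± 189.6 on the LIN28A arrays (SD, n = 2), a difference of -0.22 ± 0.36 SE, and the 5 differences ran from -0.38 to -0.15. The lines overlapped at all 5. Bmpr1b averaged 17.3 ± 4.67 and 14.2 ± 11.8, and the type II receptor gene Bmpr2 averaged 30.8 ± 5.02 and 23.2 ± 4.45, with both LIN28A arrays below the controls. Of 5 receptors tested, 0 were higher in both numbers and 2 were lower, whereas Acvr2b read higher in both.

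The Smads that carry the signal averaged close to 0 at their brightest probe sets, with opposite signs in the numbers for Smad4 and Smad5. Smad1 averaged 261 ± 18.4 on the control arrays and 247 ± 24.3 on the LIN28A arrays at its brightest probe set (-0.07 ± 0.28 SE), with 0.15 at the dimmer one. The shared partner Smad4 averaged 1337 ± 231 and 1264 ± 119 (-0.07 ± 0.30 SE), with 0.20 in number 1 and -0.34 in number 2. Smad5 averaged 43.8 ± 11.2 and 38.7 ± 6.29 (-0.43 and 0.19), and its dimmer probe set ran the other way (0.66 and -1.10). Of 3 tested, 1 was lower in both numbers.

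Of the other ligands, 3 of 9 measured genes passed the filter. Bmp4, which patterns dorsal ectoderm, gave 35.8 and 24.4 on the control arrays and 20.2 and 47.1 on the LIN28A arrays, so that like Bmp7 and Bambi it was lower in number 1 (-0.52) and higher in number 2 (0.64). Gdf3, a ligand of pluripotent cells, averaged 35.0 ± 20.9 and 76.8 ± 67.0 (0.71 ± 0.60 SE), and Bmp6 averaged 22.9 ± 9.69 and 14.9 ± 9.12 (-0.34 ± 0.36 SE). The secreted antagonists were mostly dim: Nog, which encodes noggin, averaged 13.2 ± 8.98 and 13.1 ± 12.4, and Grem1 averaged 14.2 ± 9.97 and 5.95 ± 0.212. Of 8 tested antagonists and binding proteins, 7 had opposite signs in the numbers, against 3682 of all 8930 tested genes.

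Among the intracellular brakes, Ski, a corepressor of Smads, averaged 97.6 ± 1.91 on the control arrays and 144 ± 26.7 on the LIN28A arrays, with both LIN28A arrays above the controls (0.49 ± 0.29 SE). Nedd4l, a ubiquitin ligase gene, averaged 131 ± 10.9 and 97.0 ± 30.3, with both below (-0.41 ± 0.32 SE). The 6 tested brakes split into 2 higher, 2 lower and 2 with opposite signs. Of the target genes, Msx1, a dorsal homeobox gene, gave 486 and 145 on the control arrays and 283 and 177 on the LIN28A arrays at its brightest probe set (-0.75 in number 1 and 0.26 in number 2). Msx2 averaged 77.1 ± 31.2 and 80.4 ± 31.0, Zfp423, which encodes a cofactor of BMP Smads, averaged 330 ± 78.7 and 419 ± 139, and the AP-1 gene Junb averaged 12.9 ± 4.88 and 5.55 ± 0.212.

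The E proteins that Id proteins bind were also measured. Tcf4 was higher in LIN28A cells within both numbers at all 5 of its tested probe sets (4 of 5 under quantile normalization), by 0.23 to 0.37. Of all tested probe sets, 24.2% were higher in both numbers. Probe sets of a single gene read on the same arrays are not independent. The lines did not overlap at 3 of the 5, but they did at the brightest. By brightest probe sets, both LIN28A arrays lay above the controls for 11.5% of all tested genes. The brightest Tcf4 probe set averaged 373 ± 112 on the control arrays and 496 ± 198 on the LIN28A arrays (0.37 ± 0.40 SE). Tcf3 averaged 249 ± 17.3 and 329.6 ± 130 (0.33 ± 0.36 SE), with 2 of 3 probe sets higher in both numbers, and Tcf12 averaged 1470 ± 5.73 and 1377 ± 213 (-0.10 ± 0.29 SE). The 95% interval of each tested Tcf4 probe set held 0.

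In the TGF-beta, activin and nodal branch, which shares Acvr2b and Smad7 with BMP signalling, 2 of 11 tested genes were higher in both numbers and 2 lower. Smad3, a TGF-beta and activin Smad, averaged 24 ± 13.0 on the control arrays and 7.00 ± 3.11 on the LIN28A arrays (-0.77 ± 0.35 SE), and both LIN28A arrays lay below the controls. Tgfb3, a TGF-beta ligand, averaged 11.6 ± 3.39 and 23.8 ± 7.50 (0.52 ± 0.31 SE), with both above. Smad3 and Tgfb3 were picked for their same-sign differences, and they read low, at most 33.2 and 29.1 on any array.

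**Figure D4:**
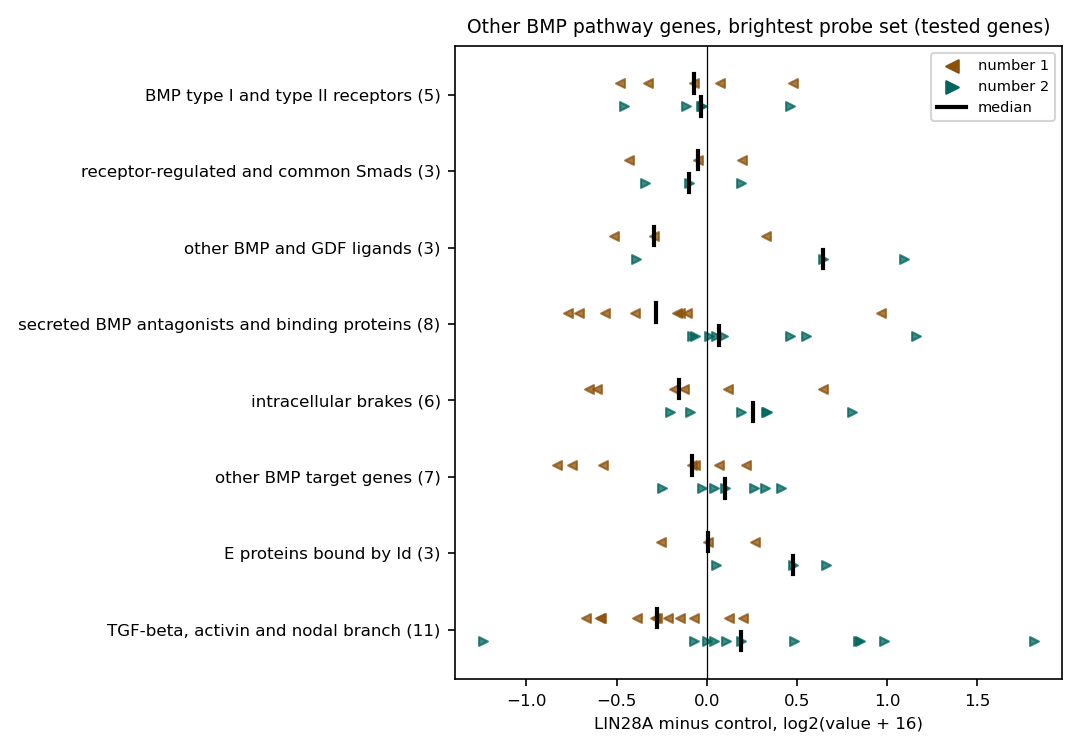
LIN28A minus control on the log2(value + 16) scale (x axis) for the 46 other tested pathway genes in 8 lists (y axis, number of genes in brackets), with left triangles for number 1, right triangles for number 2 and bars for the medians. The number 2 median lies to the right of the number 1 median in every list except the Smads, where it is -0.10 against -0.05.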

How the data were processed

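The authors deposited 1 table of intensity values for 22690 probe sets on 4 Affymetrix 1-colour arrays, made from oligo(dT)-primed, biotin-labelled cRNA per the labels' protocols. The values are linear, and their mean without the top and bottom 2% was 150.1 on each array, so they were taken as scaled between arrays by the authors. The sources used here do not name the software that summarised the probes. Detection calls were not used here, and every column was used. Of the probe sets, 20380 had 1 gene symbol in the platform annotation and 691 had several; the 64 control probe sets were left out.

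Values were turned into log2(value + 16). Those with a mean below the 30th percentile, a linear value of 8.04, were left out, which left 15838. The lines were compared with limma 3.58.1 in R 4.3.3 (lmFit, eBayes, no block), with Benjamini-Hochberg adjustment at 0.05, after tests on simulated data. With 2 arrays against 2 an exact two-sided permutation test cannot go below p = 0.333, so none was run; the number of arrays limits the precision. A gene's brightest probe set is the one with the highest mean log2 value.

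The members, the 8 pathway lists and the marker lists were chosen with earlier results of these data known. All members were named, together with fixed pathway genes, up to 2 more of each list with the largest smaller within-number difference of one sign, 3 genes closest to Id1, and fixed markers, of which T had no probe set matched here. Alternatives were other pseudocounts, filters, scalings, a mean over probe sets, eBayes with trend, the replicate block and leaving out each array.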

Additional observations from a re-analysis of the deposited data

How the results depend on the processing

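Leaving out an array mixes the replicate numbers, so its values carry part of the difference between numbers. No probe set was called under any setting run except the replicate block, which called 1 higher (468 at an unadjusted p under 0.05) and 0 lower (890). The deviations of arrays with the same number correlated with r = 0.62 over probe sets, but the labels give only the number. With the replicate block no member passed (lowest adjusted p = 0.571, for the brightest Id4 probe set and Smad6, whose unadjusted p were 0.034 and 0.0367 by limma, the 2 member values under 0.05). Median centring moved the median over all tested probe sets from -0.05 to 0.08. Of 174 repeats of member differences, 108 outside the left-out arrays and 49 among them kept their direction and stayed uncalled. The 2 that turned outside them were Id3 under quantile normalization (-0.00029) and Smad7 under median centring (0.028). Without 1 array the range was -0.25 to 0.43 for Id1, -0.36 to 0.042 for the brightest Id2 probe set, -0.34 to 0.40 for Id3, and -1.27 to 0.13, -0.52 to 0.22 and -0.54 to 0.11 for Id4, from its brightest to its dimmest probe set. It was -0.39 to 0.20 for Smad7, and -0.0039 to 0.80, -0.76 to 1.61 and -0.31 to 0.74 for Bmp7, in the same order. The median over the 10 genes (0.06) was -0.075 to 0.14 without 1 array and -0.14 in number 1 alone. Median centring gave 5 genes higher in both numbers in place of 3. The pathway list median (-0.05) was 0.064 with the filter at the 50th percentile, 0.10 under quantile normalization, 0.082 under median centring, 0.10 in number 2 alone, and -0.25 to 0.21 without 1 array. The number 1 and number 2 values alone were added after seeing the data, and the cause of these moves was not tested.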

Other observations

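Tgfbr1, the TGF-beta type I receptor gene, was chosen here after its values were seen. Its brightest probe set gave 757 and 919 on the control arrays and 576 and 922 on the LIN28A arrays (-0.19 ± 0.35 SE). The difference there was -0.39 in number 1 and 0.0037 in number 2. The second gave 29.6 and 62.8 on the control arrays and 4.10 and 14.7 on the LIN28A arrays, and the dimmest gave 16.9 and 39.2 against 7.00 and 3. At both dimmer probe sets the LIN28A arrays lay below both control arrays, and the LIN28A values were under the pseudocount of 16. The differences by limma were -1.27 ± 0.40 SE and -1.03 ± 0.36 SE. The unadjusted p-values by limma were 0.0199 and 0.0297, and both had an adjusted p of 1. Of all tested probe sets, 1.21% were lower at an unadjusted p under 0.05. The probe sets of this gene thus disagree, as those of Id2 do. Lefty1, a nodal antagonist gene, was also chosen after its values were seen. It gave 124 and 46.1 on the control arrays and 137 and 203 on the LIN28A arrays (0.12 in number 1 and 1.82 in number 2). LIN28A 2 was its highest array, and the share of all genes with this pattern was not counted.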
